A study of Mus musculus with 13 samples.

Results

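The genes described here were 6 of the 13 mRNAs of the mouse mitochondrial genome, together with 4 nuclear copies of them, that is, 10 of 53392 genes in the count table and 10 of the 14317 that passed the filter on low counts. They were taken by symbol: mt-Co1, mt-Co2 and mt-Co3 (core subunits of cytochrome c oxidase), mt-Cytb (cytochrome b), mt-Atp6 and mt-Atp8 (ATP synthase subunits), Gm10925 (a copy of mt-Atp6), Gm28437 (a copy of mt-Co3), and Gm28661 and Gm13341 (copies of mt-Co2). All 10 passed the filter. The set was chosen by measured values as well as by role: the calls of mt-Co2 and mt-Co3 between the control groups and the difference of Gm10925 between genotypes were known, and these values are given below as a description. Whole-liver RNA of 13 female mice, 8 to 14 weeks old by the study's methods, was sequenced after 4 weeks of a Lieber-DeCarli liquid diet with 28% of calories from ethanol. All mice carried Albumin-Cre and a Rosa26-loxP-stop-loxP-rtTA allele, so that rtTA, the Dox-responsive activator, was made in hepatocytes. ASAH+ mice also carried TRE-ASAH1, from which rtTA with Dox drives acid ceramidase, and ASAH− littermates lacked it. The groups were ASAH− mice with Dox in the ethanol diet (Etoh-Dox, n = 4), ASAH+ mice with the same diet (n = 5) and ASAH+ mice on the ethanol diet without Dox (Etoh, n = 4). The 3 comparisons asked which control suits transgene induction: the genotype comparison set ASAH+ against ASAH− mice on Etoh-Dox, the diet comparison set Etoh-Dox against Etoh in ASAH+ mice, and the control comparison set the ASAH− Etoh-Dox mice against the ASAH+ Etoh mice. Each pair of comparisons shares a group. In the diet comparison Dox itself and ASAH1 induction cannot be told apart, and in the control comparison genotype and Dox differ together.

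Mitochondrial DNA is transcribed as long precursors that are cut into rRNAs, tRNAs and mRNAs, and its mRNAs encode membrane subunits of the respiratory chain. Cytochrome b belongs to complex III, which passes electrons from ubiquinol to cytochrome c. Cytochrome c oxidase, or complex IV, hands them to oxygen, and ATP synthase, or complex V, makes ATP from the resulting proton gradient. Hepatocytes are rich in mitochondria, and alcohol metabolism yields NADH that this chain oxidizes. Pieces of mitochondrial DNA have also been inserted into chromosomes, where they remain as pseudogenes that can match the mitochondrial transcripts base for base.

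The copies were placed on GRCm38 by the GENCODE M21 annotation, which was also the source of the sequences. mt-Co2 (ENSMUSG00000064354) lies at chrM:7013-7696, mt-Atp8 (ENSMUSG00000064356) at chrM:7766-7969, mt-Atp6 (ENSMUSG00000064357) at chrM:7927-8607 and mt-Co3 (ENSMUSG00000064358) at chrM:8607-9390, all on the plus strand. mt-Co1 (ENSMUSG00000064351) lies before them at chrM:5328-6872 and mt-Cytb (ENSMUSG00000064370) further along at chrM:14145-15288. On the minus strand of chromosome 1, the unprocessed pseudogenes Gm28661 (ENSMUSG00000102070, chr1:24614885-24615565), Gm10925 (ENSMUSG00000100862, chr1:24613974-24614651) and Gm28437 (ENSMUSG00000101111, chr1:24613189-24613971) follow each other in the order of their mitochondrial counterparts. They span 2377 bases, against 2378 bases from mt-Co2 to mt-Co3. Between Gm28661 and Gm10925 lie 233 bases with no annotated gene, where mt-Atp8 would fall in the mitochondrial order. Gm13341 (ENSMUSG00000083863), also an unprocessed pseudogene, is at chr2:22587291-22587962 on the minus strand.

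The 3 copies on chromosome 1 equal their mitochondrial gene over their whole length, 678 of 678 bases for Gm10925, 783 of 783 for Gm28437 and 681 of 681 for Gm28661, and differ from it only in where they end. The transcript ends are shown because the capitals are all that separates each pair, 5′ to 3′:
mt-Atp6: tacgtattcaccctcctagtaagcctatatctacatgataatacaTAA
Gm10925: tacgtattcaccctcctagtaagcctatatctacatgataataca
mt-Co3: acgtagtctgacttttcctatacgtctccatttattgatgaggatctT
Gm28437: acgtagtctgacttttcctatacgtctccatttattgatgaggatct
mt-Co2: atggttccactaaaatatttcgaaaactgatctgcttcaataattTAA
Gm28661: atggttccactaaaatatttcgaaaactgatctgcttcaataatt
The capitals mark the 3, 1 and 3 bases that Gm10925, Gm28437 and Gm28661 lack. Every stretch of 31 bases in these copies also occurs in the mitochondrial gene (648 stretches for Gm10925, 753 for Gm28437 and 651 for Gm28661), so no read inside them can be assigned by its sequence.

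Gm13341 differs from mt-Co2 at 16 of 672 bases, and 308 of its 642 stretches of 31 bases also occur in mt-Co2. The first 240 bases of both are shown with their 3 mismatches in capitals:
mt-Co2: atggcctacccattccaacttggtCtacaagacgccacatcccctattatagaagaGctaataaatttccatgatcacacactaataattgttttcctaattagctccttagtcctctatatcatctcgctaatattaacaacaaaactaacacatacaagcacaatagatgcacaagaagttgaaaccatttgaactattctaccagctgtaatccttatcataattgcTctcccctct
Gm13341: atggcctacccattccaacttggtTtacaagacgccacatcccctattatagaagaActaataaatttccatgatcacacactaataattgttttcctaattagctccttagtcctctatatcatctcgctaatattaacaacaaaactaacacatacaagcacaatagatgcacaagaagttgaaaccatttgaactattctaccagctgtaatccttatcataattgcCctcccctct
A read that covers such a position can be told apart.

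mt-Atp8 has no copy in the annotation of the chromosome 1 block. Its end overlaps the start of mt-Atp6 by 43 bases, shown in capitals in the whole mt-Atp8 transcript and the first 72 bases of mt-Atp6:
mt-Atp8: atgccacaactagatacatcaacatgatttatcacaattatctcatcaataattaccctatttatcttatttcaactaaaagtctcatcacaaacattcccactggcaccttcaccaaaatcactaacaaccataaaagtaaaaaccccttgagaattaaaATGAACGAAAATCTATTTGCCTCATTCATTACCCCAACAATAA
mt-Atp6: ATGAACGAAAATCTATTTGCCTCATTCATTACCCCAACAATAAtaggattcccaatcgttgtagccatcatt
Only 13 stretches of 31 bases of mt-Atp8 occur in mt-Atp6 or Gm10925. Outside the 10 genes, mt-Co1 shares 449 stretches with Gm29216, which equals the last 492 bases of mt-Co1 but for 6 mismatches within its first 13 bases, and 685 with Gm13340.

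Between 17819486 and 35358711 counts per mouse were assigned to genes, and 4.67 to 6.05% of them fell on the 10 genes. Asah1, the induced gene, averaged 12755 CPM (counts scaled to library size with TMM factors) in ASAH+ mice on Etoh-Dox, against 49.4 CPM in ASAH− mice on Etoh-Dox and 46.5 CPM in ASAH+ mice on Etoh. The hepatocyte markers Alb, Apoa1, Ttr, Cyp2e1 and Ass1 summed to at least 82762 CPM in every mouse, and 4 muscle markers to at most 0.0868 CPM. The 3 red cell markers summed to 135 to 990 CPM in ASAH− Etoh-Dox mice, 157 to 531 CPM in ASAH+ Etoh-Dox mice and 90.8 to 125 CPM in ASAH+ Etoh mice. The last range lies below both others. The 5 Kupffer cell markers summed to 307 to 657 CPM in ASAH− Etoh-Dox mice, 229 to 437 CPM in ASAH+ Etoh-Dox mice and 238 to 305 CPM in ASAH+ Etoh mice, without overlap between the controls. The 5 stellate cell markers summed to 228 to 274 CPM in ASAH− Etoh-Dox mice, without overlap with the 177 to 227 CPM of ASAH+ Etoh-Dox mice, and to 192 to 245 CPM in ASAH+ Etoh mice. The Kupffer and stellate gaps were narrow, at 307 against 305 CPM and 228 against 227 CPM. The hepatocyte, cholangiocyte, sinusoidal endothelium, lymphocyte, muscle, adipocyte and pancreas markers overlapped in each comparison. Of all genes tested, 0.887%, 2.58% and 5.5% had groups without overlap by genotype, by diet and between controls. The part of red, Kupffer and stellate cells in the differences below was not tested. In whole-liver RNA, fewer cells of a type and less RNA per cell cannot be told apart.

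Per length of transcript, the mitochondrial genes taken alone ran from mt-Atp6, with 13515 ± 1838 CPM per kb (SD, n = 13), through mt-Co1 (11888 ± 958 CPM per kb), mt-Co3 (8749 ± 1940 CPM per kb), mt-Cytb (7526 ± 844 CPM per kb) and mt-Atp8 (6686 ± 681 CPM per kb), to mt-Co2 with 2061 ± 977 CPM per kb. The ranges of neighbours in this order overlapped, except those of mt-Atp8 and mt-Co2. The order was not the same in each group: in ASAH+ Etoh mice mt-Co1 (12422 CPM per kb) was above mt-Atp6 (11988 CPM per kb), and mt-Cytb (6820 CPM per kb) above mt-Co3 (6561 CPM per kb). Counted with its copies, mt-Co2 stood at 12782 ± 1335 CPM per kb, and was above mt-Co3 with Gm28437 (11999 ± 1141 CPM per kb) in 12 of 13 mice. mt-Atp6 with Gm10925 reached 14775 ± 1152 CPM per kb, and mt-Co1 with Gm29216 and Gm13340 15504 ± 1323 CPM per kb. The mt-Co2 level thus depended on the rows counted more than that of any other of the 6 genes.

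**Figure D1:**
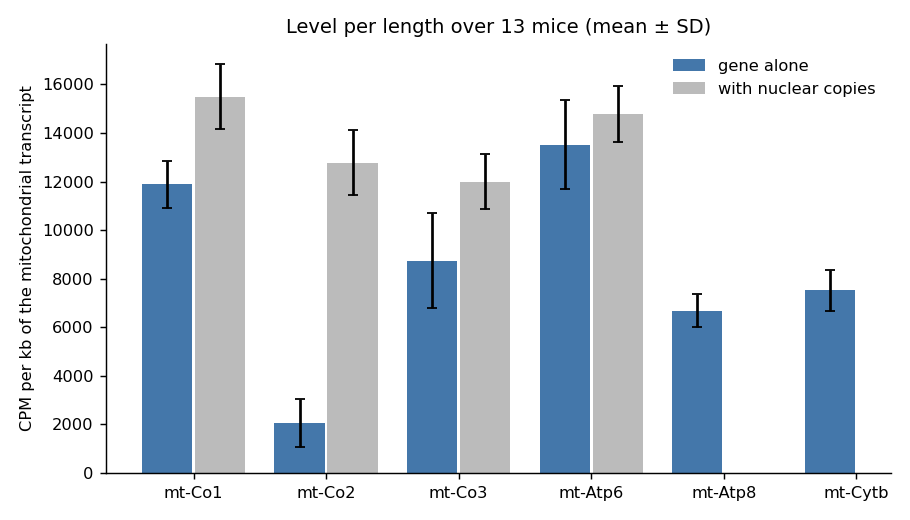
Mean level of the 6 mitochondrial genes over 13 mice, in CPM per kb of the mitochondrial transcript, with SD, for the gene alone (blue) and with its nuclear copies (grey). mt-Co2 goes from 2061 to 12782 CPM per kb, and mt-Cytb and mt-Atp8 have no copies counted here.

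Among the oxidase subunits, mt-Co2, which carries the copper site that takes electrons from cytochrome c, had the largest fold change between groups. The ASAH− mice on Etoh-Dox had 2753, 1814, 2573 and 1279 CPM, the ASAH+ mice on Etoh-Dox 1653, 1189, 1195, 1307 and 1586 CPM, and the ASAH+ mice on Etoh 759, 772, 892 and 558 CPM. Every Etoh-Dox mouse of either genotype was above every Etoh mouse, and the Etoh-Dox groups overlapped. In the control comparison its log2 fold change was 1.497 ± 0.221 (SE). The call of this difference was known when the gene was chosen, so the value is a description and carries no test. The log2 fold change was 0.89 ± 0.21 in the diet comparison (adjusted p = 0.417) and −0.60 ± 0.20 in the genotype comparison (adjusted p = 0.99966).

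Gm28661, its copy, held more counts than mt-Co2 in every mouse. Its levels were 6787, 8085, 6541 and 7349 CPM in ASAH− Etoh-Dox mice, 7403, 7402, 8576, 8033 and 7302 CPM in ASAH+ Etoh-Dox mice, and 6730, 5905, 7177 and 8012 CPM in ASAH+ Etoh mice. The 3 groups overlapped, and the log2 fold changes were 0.11 ± 0.098 by genotype, 0.15 ± 0.098 by diet and 0.048 ± 0.10 between controls (lowest adjusted p = 0.758). Reads of Gm13341 can be told apart from those of mt-Co2 only where they cover a mismatch. Gm13341 had 1.18 to 2.86 CPM over the 13 mice, that is, 29 to 79 counts, with overlapping groups in each comparison.

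Summed, mt-Co2 and its copies had 9542, 9901, 9116 and 8629 CPM in ASAH− Etoh-Dox mice, 9058, 8593, 9774, 9342 and 8891 CPM in ASAH+ Etoh-Dox mice, and 7491, 6678, 8071 and 8573 CPM in ASAH+ Etoh mice. The Etoh mice were still below all others, but the nearest mice, at 8573 and 8593 CPM, almost met. The log2 fold change in the control comparison was 0.27 ± 0.087 (adjusted p = 0.397), against 1.497 for mt-Co2 alone. Most counts of the sum are those of Gm28661, so the same CPM difference gives a smaller log2 value. Between controls mt-Co2 averaged 2104.5 against 745 CPM, Gm28661 7190.5 against 6956 CPM and the sum 9297 against 7703 CPM. Gm28661 was thus not lower in the group where mt-Co2 was higher. The log2 fold change of the sum is given for the other comparisons next. It was 0.25 ± 0.083 by diet (adjusted p = 0.548) and −0.026 ± 0.082 by genotype (adjusted p = 0.99948). No comparison of the sum passed the threshold of 0.1 with edgeR. DESeq2 on all mice called it by diet (adjusted p = 0.0946), a comparison that shares the ASAH+ Etoh mice behind the choice of mt-Co2.

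mt-Co3, the oxidase core subunit without a metal centre, had 8914, 8761, 9175 and 7448 CPM in ASAH− Etoh-Dox mice, 7758, 6628, 7200, 6324 and 6387 CPM in ASAH+ Etoh-Dox mice, and 4604, 4990, 5929 and 5052 CPM in ASAH+ Etoh mice. As for mt-Co2, all Etoh mice lay below all Etoh-Dox mice. Its log2 fold change was 0.74 ± 0.10 in the control comparison. This call too was known when the gene was chosen, so the value is given without a test. The log2 fold change was 0.42 ± 0.097 by diet (adjusted p = 0.409) and −0.32 ± 0.096 by genotype (adjusted p = 0.99966).

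Gm28437, the copy of mt-Co3, was ordered the other way. It had 804, 1543, 548 and 2446 CPM in ASAH− Etoh-Dox mice, 2455, 3048, 3408, 3161 and 2711 CPM in ASAH+ Etoh-Dox mice, and 3381, 2493, 2876 and 4250 CPM in ASAH+ Etoh mice. Each ASAH− mouse was below each ASAH+ mouse on either diet, although ASAH− replicate 4, at 2446 CPM, came close to the lowest ASAH+ mouse, at 2455 CPM. The log2 fold change was 1.15 ± 0.35 by genotype (adjusted p = 0.99966), −0.14 ± 0.34 by diet (adjusted p = 0.959) and −1.28 ± 0.37 between controls (adjusted p = 0.389).

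The sum of mt-Co3 and Gm28437 was 9718, 10304, 9723 and 9895 CPM in ASAH− Etoh-Dox mice, 10213, 9676, 10608, 9485 and 9098 CPM in ASAH+ Etoh-Dox mice, and 7985, 7482, 8806 and 9302 CPM in ASAH+ Etoh mice. The groups on Etoh-Dox overlapped widely, and the Etoh mice were below all ASAH− mice and below 19 of 20 pairings with ASAH+ Etoh-Dox mice. Its log2 fold change was 0.24 ± 0.083 between controls (adjusted p = 0.430), 0.23 ± 0.079 by diet (adjusted p = 0.548) and −0.014 ± 0.079 by genotype (adjusted p = 0.99948). The control difference of mt-Co3 alone was 0.74, and that of the sum did not pass the threshold. By diet DESeq2 on all mice called the sum (adjusted p = 0.0981), in a comparison that shares the ASAH+ Etoh mice behind the choice of mt-Co3.

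mt-Co1, which holds the haem and copper site where oxygen is reduced, had the highest CPM of the 10 genes. It ranged from 17234 to 19414 CPM in ASAH− Etoh-Dox mice, from 16897 to 18413 CPM in ASAH+ Etoh-Dox mice and from 15780 to 20844 CPM in ASAH+ Etoh mice. The groups overlapped, with log2 fold changes of −0.052 ± 0.087, −0.12 ± 0.087 and −0.064 ± 0.091 by genotype, by diet and between controls. Its mean was higher in ASAH+ Etoh mice (19191 CPM) than in ASAH− Etoh-Dox mice (18358 CPM), whereas those of mt-Co2 and mt-Co3 were lower. With Gm29216 and Gm13340 added, the values were −0.063 ± 0.088, −0.13 ± 0.088 and −0.072 ± 0.093, and the lowest adjusted p was 0.768.

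**Figure D2:**
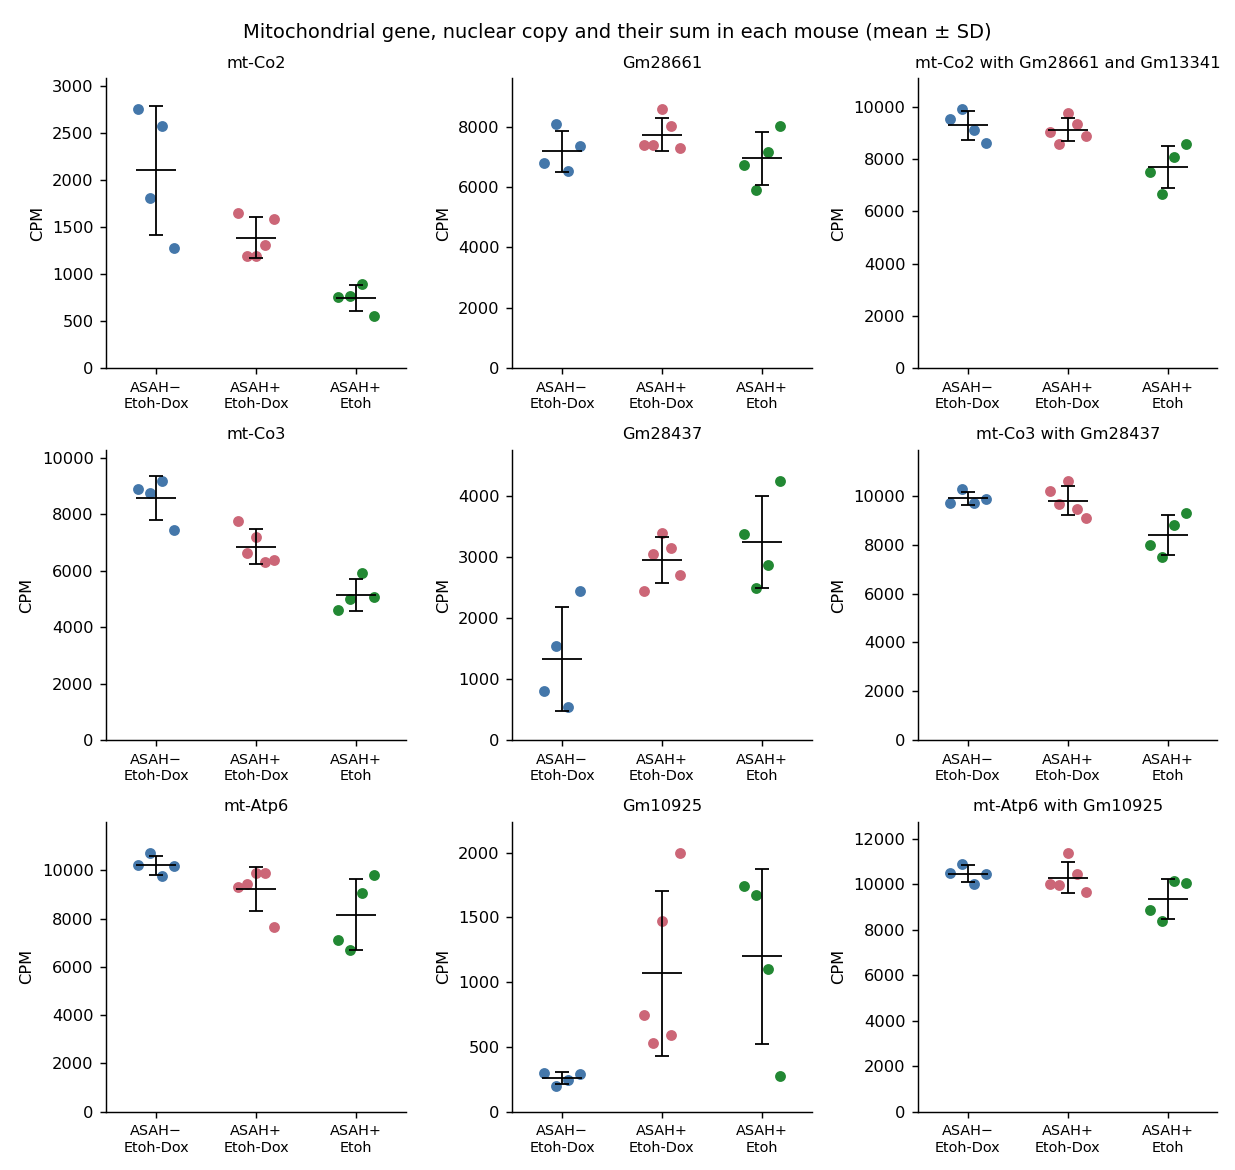
CPM in each of the 13 mice (points) with group mean ± SD, for mt-Co2, mt-Co3 and mt-Atp6 (left), their nuclear copies on chromosome 1 (middle) and the sums (right). mt-Co2 averages 2104 CPM in ASAH− Etoh-Dox mice and 745 CPM in ASAH+ Etoh mice, while its sum averages 9297 and 7703 CPM.

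mt-Cytb, the cytochrome b of complex III, had 8466 to 9643 CPM in ASAH− Etoh-Dox mice, 7737 to 10376 CPM in ASAH+ Etoh-Dox mice and 6966 to 8936 CPM in ASAH+ Etoh mice. The ranges overlapped in each comparison. Its log2 fold change was 0.0072 ± 0.10 by genotype, 0.20 ± 0.10 by diet and 0.20 ± 0.11 between controls (adjusted p = 0.99966, 0.700 and 0.603).

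Of the ATP synthase subunits, mt-Atp6 forms part of the proton channel. It had 10213, 10709, 9745 and 10169 CPM in ASAH− Etoh-Dox mice, 9290, 9434, 9904, 9865 and 7663 CPM in ASAH+ Etoh-Dox mice, and 7120, 6710, 9036 and 9789 CPM in ASAH+ Etoh mice. The low value of 7663 CPM belonged to the mouse with the most Gm10925 of its group. The log2 fold changes were −0.15 ± 0.11 by genotype, 0.18 ± 0.11 by diet and 0.32 ± 0.12 between controls (adjusted p = 0.99966, 0.764 and 0.455).

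Gm10925, the copy of mt-Atp6, had 298, 195, 248 and 289 CPM in ASAH− Etoh-Dox mice, 744, 532, 1469, 594 and 1996 CPM in ASAH+ Etoh-Dox mice, and 1741, 1673, 1102 and 277 CPM in ASAH+ Etoh mice. All 5 ASAH+ mice on Etoh-Dox were above all 4 ASAH− mice, with a log2 fold change of 2.05 ± 0.54; this difference was known when the gene was chosen and carries no test. In ASAH+ mice on Etoh, replicate 4 fell among the ASAH− mice, whereas the other 3 lay above them. The values were −0.17 ± 0.50 by diet (adjusted p = 0.967) and −2.22 ± 0.56 between controls (adjusted p = 0.389).

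mt-Atp6 with Gm10925 had 10511, 10905, 9993 and 10458 CPM in ASAH− Etoh-Dox mice, 10034, 9966, 11372, 10459 and 9658 CPM in ASAH+ Etoh-Dox mice, and 8861, 8383, 10138 and 10066 CPM in ASAH+ Etoh mice. The groups overlapped in each comparison. By genotype the log2 fold change of the sum was −0.024 ± 0.079 (adjusted p = 0.99948), where Gm10925 alone had 2.05. It was 0.14 ± 0.079 by diet (adjusted p = 0.731) and 0.16 ± 0.083 between controls (adjusted p = 0.588).

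mt-Atp8, the short subunit read from the same mRNA as mt-Atp6, had 1275 to 1484 CPM in ASAH− Etoh-Dox mice, 1222 to 1590 CPM in ASAH+ Etoh-Dox mice and 1118 to 1396 CPM in ASAH+ Etoh mice. The groups overlapped, with log2 fold changes of 0.011 ± 0.096, 0.17 ± 0.097 and 0.16 ± 0.10 by genotype, by diet and between controls.

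Over the 10 genes, 0 were called by genotype and 0 by diet with edgeR, and 2 were called in the control comparison, mt-Co2 and mt-Co3. In each comparison 2 of the 14317 genes tested were called (0.014%), and mt-Co2 and mt-Co3 were the 2 of the control comparison. Leaving out a mouse ended the call of mt-Co2 in 12 of 13 fits, all but that without ASAH− replicate 4 (adjusted p from 0.0062 to 0.349), with log2 fold changes from 1.32 to 1.67 over the 13 fits. It ended that of mt-Co3 in 10 of 13, all but those without ASAH− replicate 4, ASAH+ Etoh-Dox replicate 1 or ASAH+ Etoh replicate 3 (adjusted p from 0.022 to 0.349), with log2 fold changes from 0.69 to 0.80. With edgeR on the groups compared alone, both had an adjusted p of 0.291, at log2 fold changes of 1.49 and 0.73. At an unadjusted p under 0.05 the genes numbered 4, 2 and 5 of 10 by genotype, by diet and between controls, against 2.86%, 7.29% and 9.19% of all genes tested. Groups without overlap were found for 2 genes by genotype, both higher in ASAH+ mice (0.44% of all genes were higher so and 0.447% lower, 0.887% in all). By diet they were found for 2 genes, both higher on Etoh-Dox (1.09% of all genes higher and 1.49% lower, 2.58% in all). Between controls they were found for 2 genes higher in ASAH− mice (3.09%) and 1 lower (2.4%, and 5.5% in all). Since earlier results for these comparisons led to the choice of the genes, the counts only describe them. The adjusted p-values of mt-Co2 and mt-Co3 between controls likewise describe known calls and carry no test. The median log2 fold change of the 6 mitochondrial genes was −0.098, 0.19 and 0.26 by genotype, by diet and between controls, and that of the 4 copies 0.67, 0.0091 and −0.62. The medians over all genes tested were −0.0023, 0.013 and 0.016.

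**Figure D3:**
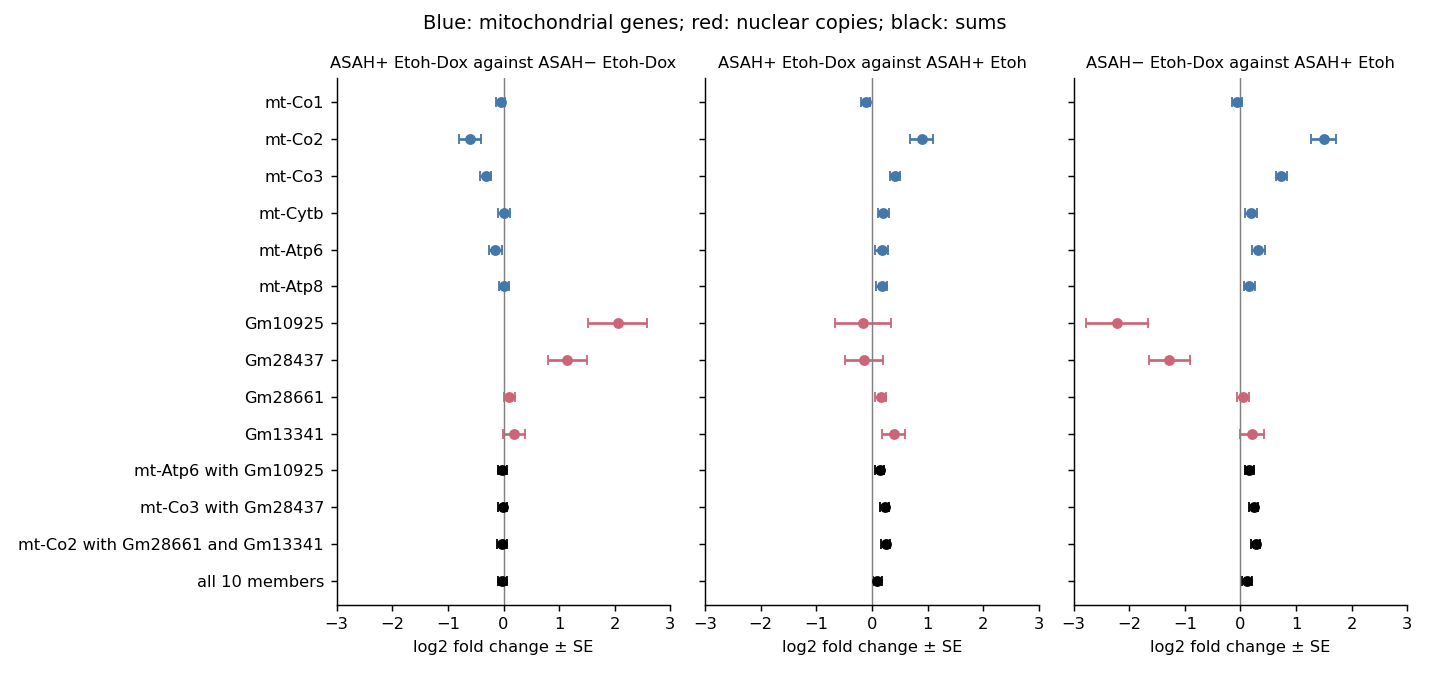
Log2 fold changes (points) with SE (bars) in the 3 comparisons for the mitochondrial genes (blue), the nuclear copies (red) and the sums (black), from the edgeR fits over 13 mice. In the genotype comparison Gm10925 and Gm28437 stand at 2.05 and 1.15 and the 4 sums drawn lie between −0.026 and −0.014.

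All 10 genes together took 5.80 ± 0.217% of a mouse's counts in ASAH− Etoh-Dox mice (SD, n = 4), 5.82 ± 0.215% in ASAH+ Etoh-Dox mice (n = 5) and 5.29 ± 0.47% in ASAH+ Etoh mice (n = 4). The share was higher on Etoh-Dox than on Etoh in 18 of 20 pairings of ASAH+ mice, and higher in ASAH− than in ASAH+ Etoh mice in 14 of 16. By two-sided exact permutation tests over mice, p was 0.905 by genotype, 0.0635 by diet and 0.114 between controls, and 0.905, 0.171 and 0.171 after adjustment over the 3 tests. The smallest p that the design allows was 0.0159, 0.0159 and 0.0286. As a summed gene in edgeR, they had log2 fold changes of −0.025 ± 0.080, 0.095 ± 0.080 and 0.12 ± 0.084 (adjusted p = 0.9996, 0.823 and 0.711).

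The division of a family's counts between gene and copy differed from mouse to mouse. Gm10925 held 2.84, 1.79, 2.48 and 2.77% of the mt-Atp6 family in ASAH− Etoh-Dox mice. It held 7.41, 5.34, 12.9, 5.68 and 20.7% of it in ASAH+ Etoh-Dox mice and 19.6, 20, 10.9 and 2.75% in ASAH+ Etoh mice. The range was thus narrow in ASAH− mice and wide in both other groups, where replicate 4 on Etoh stayed at 2.75%.

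Gm28437 held 8.27, 15, 5.63 and 24.7% of the mt-Co3 family in ASAH− Etoh-Dox mice. The values were 24, 31.5, 32.1, 33.3 and 29.8% in ASAH+ Etoh-Dox mice and 42.3, 33.3, 32.7 and 45.7% in ASAH+ Etoh mice. The lowest Etoh mouse was above the highest ASAH− mouse.

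Gm28661 held 71.1, 81.7, 71.8 and 85.2% of the mt-Co2 family in ASAH− Etoh-Dox mice. It held 81.7, 86.1, 87.7, 86 and 82.1% in ASAH+ Etoh-Dox mice and 89.8, 88.4, 88.9 and 93.5% in ASAH+ Etoh mice, where every mouse was above all others. Gm13341, with its own mismatches, held 0.0177 to 0.0322% of the family. The widest 95% Wilson interval of a copy share reached 0.243 percentage points to either side, which covers counting error but not the error of dividing reads between identical sequences. The shares rest on estimated counts of sequences that do not differ, and they were not tested between groups. Gm29216 held 21.9 to 24.9% of the mt-Co1 family over the 13 mice.

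**Figure D4:**
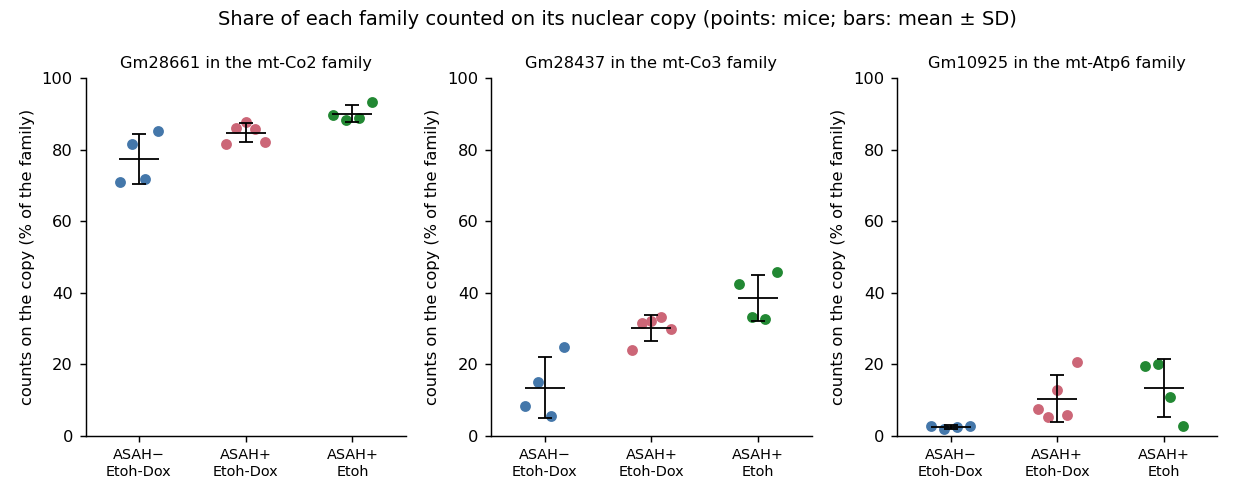
Percent of a family's counts assigned to its copy on chromosome 1 in each of the 13 mice (points), with group mean ± SD. The means run from 77.4 to 90.2% for Gm28661, from 13.4 to 38.5% for Gm28437 and from 2.47 to 13.3% for Gm10925.

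The shares of Gm28437 and Gm28661 moved together over the 13 mice, with r = 0.945 and Spearman rho = 0.929. These values contain the group differences behind the choice of mt-Co2 and mt-Co3, so they are given as a description with no test. After removal of the group means, r was 0.866 (permutation p = 0.00014) and rho 0.797 (permutation p = 0.00176), and r was 0.745 without the 2 mice farthest from the median. The permutations moved the deviations freely among all 13 mice, although the groups differ in spread. The SD of the Gm28437 share was 8.51, 3.65 and 6.52 percentage points in ASAH− Etoh-Dox, ASAH+ Etoh-Dox and ASAH+ Etoh mice. The p-values after removal of the group means are therefore approximate and may be too small. For the share of Gm10925 no relation was detected. As measured, its r was 0.486 with Gm28437 (0.547 without the 2 farthest mice) and 0.371 with Gm28661, again as a description. After removal of the group means, it was −0.19 with Gm28437 (permutation p = 0.534) and −0.27 with Gm28661 (permutation p = 0.377). Adjusted over the 6 relations, the p-values of r after removal of the group means were 0.00042, 0.534 and 0.452. The 6 include the relations as measured, which are given above as a description only. The shares of a mouse come from the same library and the same estimation step.

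**Figure D5:**
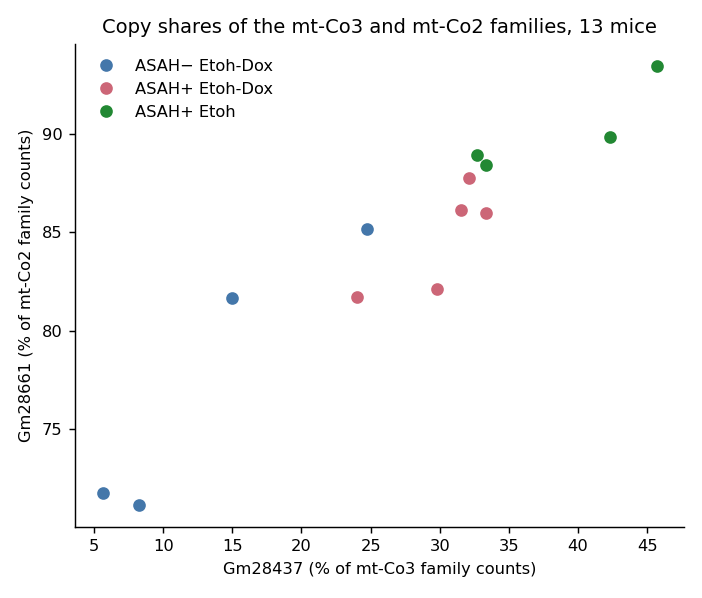
Share of Gm28661 in the mt-Co2 family against the share of Gm28437 in the mt-Co3 family, in percent of the family's counts, for 13 mice colored by group. The group mean of each share is lowest in ASAH− Etoh-Dox mice and highest in ASAH+ Etoh mice, and single mice of the Etoh-Dox groups overlap. Over the 13 mice r = 0.945.

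Of the other mitochondrial mRNAs, the 7 mt-Nd genes (subunits of complex I, which oxidizes NADH), 0 were called in any comparison with edgeR. At an unadjusted p under 0.05 they numbered 1 by genotype, 3 by diet and 2 between controls, against 2.86%, 7.29% and 9.19% of all genes tested. The largest difference was that of mt-Nd3 between controls, 0.76 ± 0.14 on the log2 scale (adjusted p = 0.248), with 138 ± 19 CPM in ASAH− Etoh-Dox mice and 81.1 ± 12.0 CPM in ASAH+ Etoh mice and no overlap. It was 0.46 ± 0.13 by diet (adjusted p = 0.507) and −0.30 ± 0.13 by genotype. mt-Nd6, the only mRNA of the list read from the other strand, gave −0.28 ± 0.25 between controls. The rRNAs mt-Rnr1 and mt-Rnr2 had log2 fold changes of −0.44 ± 0.19 and −0.33 ± 0.19 between controls (adjusted p = 0.512 and 0.639), opposite in sign to the median of the 6 mRNAs. The libraries were poly(A)-selected, so these counts need not follow the level of the rRNAs.

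The nuclear genes that act with these subunits gave no calls with edgeR in any comparison. For the 9 nuclear subunits of complex III, the median log2 fold changes were −0.050, 0.054 and 0.060 by genotype, by diet and between controls, and 0, 2 and 3 had an unadjusted p under 0.05. These counts, and those of the lists that follow, stand against 2.86%, 7.29% and 9.19% of all genes tested in the same comparisons. Uqcr11, a small subunit, stood at 0.56 ± 0.16 between controls (adjusted p = 0.389), and Uqcrq at 0.41 ± 0.17 by diet (adjusted p = 0.621). For the 12 nuclear subunits of complex IV the medians were −0.070, 0.050 and 0.13, with 0, 0 and 1 at an unadjusted p under 0.05. The range in the control comparison ran from −0.012 ± 0.070 for Cox5a to 0.23 ± 0.13 for Cox6a1. For the 18 nuclear genes of complex V the medians were −0.051, −0.023 and 0.025, and 0 had an unadjusted p under 0.05 in any comparison.

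For 29 assembly factors of complexes III, IV and V the medians were −0.067, 0.039 and 0.058, and 1, 0 and 3 had an unadjusted p under 0.05. Uqcc2, needed for cytochrome b to be made and assembled, gave 0.40 ± 0.18 between controls (adjusted p = 0.532). For 31 genes of mitochondrial DNA maintenance and expression the medians were −0.0063, −0.014 and 0.0050, with 1 gene at an unadjusted p under 0.05 in each comparison. Hsd17b10, a subunit of the mitochondrial enzyme that cuts the 5′ ends of tRNAs, gave −0.30 ± 0.11 by genotype (adjusted p = 0.99966), with 62.0 ± 5.4 CPM in ASAH+ and 76.5 ± 8.87 CPM in ASAH− mice.

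Across the 13 mice, the genes outside the 10 that were most like their sum in log2 CPM were Gm8203 (r = 0.874), Myh14 (r = 0.871), mt-Nd4 (r = 0.858), Adam12 (r = 0.856) and Plekha4 (r = 0.851). Those most like Gm10925 were Nfatc3 (r = 0.891), Oxsr1 (r = 0.856), Spast (r = 0.844), Acer3 (r = 0.834) and Gm13421 (r = 0.831). The ranking describes these libraries without a test.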

How the data were processed

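Poly(A)-selected whole-liver RNA of 13 mice was sequenced as single reads. The authors estimated transcript abundance with salmon on GENCODE M19 transcripts (GRCm38.p6) and collapsed it to gene level with tximport. The table holds estimated counts as deposited, rounded by the authors to whole numbers (100% of values). salmon divides reads that match several transcripts by estimated abundance, so counts of a gene and an identical copy are not separate measurements, whereas their sum does not depend on the division.

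Groups were read from each sample's description and induction label; the Dox treatment in the titles of ASAH+ samples is reversed, so titles served for replicate numbers alone. Each sample was taken as a separate mouse; litters and cages are not given in the sources used here. Library totals were 17819486 to 35358711 counts, and the most alike of 22 replicate pairs still differed by a chi-square of 12.1 per degree of freedom, so all were kept. PCR reads carry no molecular identifiers, so intervals cover counting error only. Of the gene identifiers, 53355 matched GENCODE M21.

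Genes were tested with edgeR 4.0.16 in R 4.3.3 (its count filter, TMM with factors of 0.965 to 1.06, robust quasi-likelihood fit with 3 group means over all 13 mice, two-sided) and adjusted by the Benjamini-Hochberg method over 14317 genes with a threshold of 0.1. Sums replaced their rows in the table, which was then refitted. Log2 CPM used a prior count of 2. Tests were run on simulated data first. Members and gene lists were chosen with earlier results of these data known, including the calls of mt-Co2 and mt-Co3 between controls and the difference of Gm10925 by genotype, so no test of them is independent evidence. All members were named, and from each list any gene called, otherwise at most the highest and lowest. Asah1 and further copies that share at least 100 stretches of 31 bases were also named. So were the 5 genes outside the 10 that were most like the sum and most like Gm10925. Alternatives were DESeq2 1.42.0, its size factors, limma-voom 3.58.1, edgeR on the groups compared, no filter, at least 10 counts in every mouse, library totals without the mitochondrial genes and copies or without Asah1, a replicate block, an adjusted p under 0.05 and each mouse left out. The same numbers belong to different mice.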

Additional observations from a re-analysis of the deposited data

Results flagged for a closer look

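Among 54 sets of values of a gene, sum or share in a group of 4 or 5 mice, 1 had a mouse far from the others: mt-Atp6 in ASAH+ Etoh-Dox replicate 5, with 7663 CPM against 9290 to 9904 CPM in the other 4 mice of its group. About 1 in 20 sets is marked this way by chance. In the same mouse Gm10925 was the highest of its group, at 1996 CPM, and mt-Atp6 with Gm10925 was 9658 CPM, against 9966 to 11372 CPM in the others.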

How the results depend on the processing

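The number of genes called over the whole table depended on the tool. By genotype it was 2, with DESeq2 12 (all mice) and 11 (groups compared), with edgeR on the groups compared 1, and 1 to 2 when each mouse was left out. By diet it was 2, with DESeq2 98 and 114, without a count filter 4, and 2 to 8 when each mouse was left out. Between controls it was 2, with DESeq2 149 and 168, with edgeR on the groups compared 0, at an adjusted p under 0.05 also 0 and when each mouse was left out 0 to 2. Replicate numbers did not pair the mice (correlations of same-numbered mice from −0.232 to 0.0074 by genotype, −0.088 to 0.19 by diet and −0.265 to 0.092 between controls); with the replicate block the calls were 1, 2 and 0, mt-Atp8 by genotype was −0.0033 and mt-Co3 with Gm28437 by genotype 0.011.

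Of the sums, DESeq2 on all mice called mt-Co3 with Gm28437 by diet (0.21, adjusted p = 0.0981) and mt-Co2 with its copies by diet (0.23, adjusted p = 0.0946), and the range over all settings was 0.17 to 0.27 and 0.18 to 0.29. In both fits DESeq2 also called mt-Co2 and mt-Co3 by diet and Gm10925 between controls. The diet comparison shares the ASAH+ Etoh mice of the known mt-Co2 and mt-Co3 calls. The control comparison shares the ASAH− mice of the known Gm10925 difference. These calls, and those of the sums by diet, are therefore no independent evidence. Gm10925 by genotype passed in both fits as well (2.05 on the groups compared). That difference was known when the gene was chosen and carries no test. On all mice DESeq2 also called Gm28437 between controls, where mt-Co3, with which it shares reads, was known to differ. The call of mt-Co2 between controls was lost without a count filter (adjusted p = 0.264) and both calls with the replicate block (adjusted p = 0.113 and 0.209), at log2 fold changes of 1.49 without the filter and 1.46 and 0.74 with the block. Over the 23 alternatives, mt-Co2 between controls was called in 8 (1.32 to 1.67, adjusted p from 8.3e-08 to 0.349) and mt-Co3 in 11 (0.69 to 0.80, adjusted p from 4.4e-08 to 0.349). The cause was not tested. Both calls between controls were known when the genes were chosen, so their adjusted p-values only describe them and carry no test.

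Leaving out each mouse moved values near 0 across it: mt-Cytb by genotype from −0.043 to 0.065, mt-Atp8 by genotype from −0.033 to 0.061, Gm10925 by diet from −0.53 to 0.068, Gm28437 by diet from −0.24 to 0.011 and Gm28661 between controls from −0.024 to 0.11. By genotype the sums ranged from −0.055 to 0.0079 for mt-Atp6 with Gm10925, from −0.037 to 0.021 for mt-Co3 with Gm28437 and from −0.060 to 0.017 for mt-Co2 with its copies. The percent of counts on the 10 genes differed by −0.057 to 0.108 percentage points by genotype and by 0.320 to 0.677 by diet. Over the 9 fits by diet the exact permutation p ran from 0.0286 to 0.143. The lowest was that without ASAH+ Etoh-Dox replicate 5, at a difference of 0.613. It is the smallest p that 4 against 4 mice allow and was not adjusted over the 3 tests. The 10 genes include mt-Co2 and mt-Co3, which were known to differ between controls. Depth was not limiting for these genes except Gm13341, with 29 to 79 counts.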
